A study of Rattus norvegicus with 6 samples.

Results

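Dense clusters of SYNCRIP crosslinking peaks on the nuclear chromosomes of rat were described across 3 individual-nucleotide resolution crosslinking and immunoprecipitation (iCLIP) libraries. Peaks of all 3 lists that shared at least 1 bp of one strand were merged into regions, and regions of one strand were chained over gaps of at most 200 nt. A chain of 5 or more regions with a span under 2500 nt was called a cluster. This gave 262 clusters holding 1977 of the 6908 nuclear regions (28.6%). The other nuclear regions were 2038 isolated ones, 2678 in 1046 chains of 2 to 4 regions and 215 in 5 chains that were too long. "Nuclear" refers to the chromosome of origin, since the labels give the RNA as cytoplasmic. The clusters were chosen by the positions of peaks in these same lists, so their number, span and density are descriptions and carry no test.

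The cells were primary cortical neurons of Sprague-Dawley rats, kept 6 days in vitro and given a UV-C dose of 300 mJ/cm2. There were 3 libraries precipitated with an anti-hnRNPQ antibody (clone 18E4) and 3 with an IgG1 isotype control, in numbered replicates that the submitters call biological. Only the SYNCRIP lists were used and the IgG ones are not analysed here, so no background of the precipitation stands beside any value. Replicates 1, 2 and 3 had 5596, 4079 and 2659 nuclear peaks. Sequencing depth is unknown, and a peak missing from the shorter lists is not shown to be absent from that library.

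SYNCRIP, or hnRNP Q, binds RNA through several RNA recognition motifs. In neurons it is known as a component of RNA transport granules and as a regulator of mRNA stability and translation. In iCLIP, reverse transcription tends to stop at the crosslinked nucleotide, so pile-ups of read ends mark the places where the protein touched the RNA, and several neighbouring pile-ups on one strand can reflect repeated contacts along one RNA. Pile-ups are also easier to detect on abundant RNAs, and RNA abundance was not measured in the files used here. No sequence or gene annotation of rn6, the build of the lists, was used here. Clusters are therefore given by position, and neither genes nor transcript parts nor sequences are named.

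Most clusters were short. The number of regions ranged from 5 to 22 with a median of 6, and 89 clusters had exactly 5. The span ranged from 140 to 2380 nt with a median of 540 nt (quartiles 380 and 755 nt). The median density was 1.25 regions per 100 nt, with a lowest value of 0.68 and a highest of 3.57. Regions covered 42.9% of the span in the median cluster, between 15.6% and 84.8% in single clusters. Longer clusters thus held more regions, and the 44 clusters with at least 10 regions held 619 of the member regions.

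**Figure D1:**
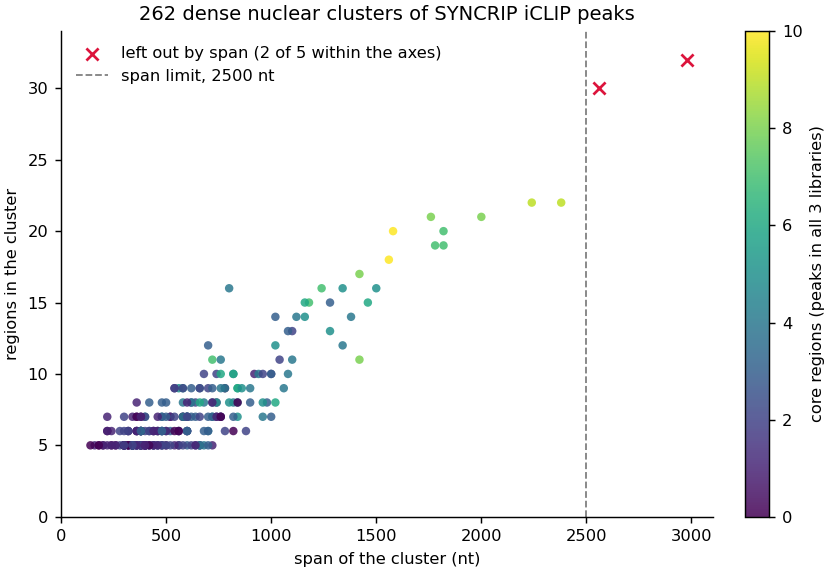
Each point is one of the 262 clusters, placed by its span (x axis, nt) and its number of regions (y axis), with the number of core regions (peaks in all 3 libraries) as colour; crosses are 2 of the 5 chains left out by span. Most clusters lie below 755 nt and 8 regions, and the 2 clusters with 10 core regions span 1560 and 1580 nt.

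Neighbouring regions within a cluster lay close together. The 1715 gaps between successive regions had a median of 40 nt, and 1078 of them (62.9%) were 40 nt or shorter. In chains of 2 to 4 regions, 928 of 1632 gaps (56.9%) were that short, and the median was also 40 nt. The commonest gap was a single bin of 20 nt, with 583 cases (33.99%). In 187 cases (10.9%) successive regions touched without overlapping. From centre to centre, successive regions were a median of 80 nt apart, and successive core regions of a cluster a median of 140 nt (quartiles 90 and 240 nt, 442 steps).

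A region with a peak in each of the 3 libraries is called core, and one with peaks in at least 2 is called replicated. In the clusters, 677 of 1977 regions were core, or 34.2% (95% Wilson interval 32.2 to 36.4), against 24.6% of all nuclear regions. Replicated regions made up 57.1% of the cluster regions (1128, interval 54.9 to 59.2), against 47.9% of all nuclear regions. Isolated regions were core in 305 of 2038 cases (14.97%, interval 13.5 to 16.6), and regions in chains of 2 to 4 in 600 of 2678 (22.4%, interval 20.9 to 24.0). In the 5 chains left out by span, 118 of 215 regions were core (54.9%, interval 48.2 to 61.4) and 69.3% were replicated. Both shares were higher there than in the clusters, so a raised core share is not particular to the clusters. Within the clusters the core share was 31.3% in those of 5 to 6 regions, 35.7% in those of 7 to 9 and 36.3% in those of 10 to 22. These intervals cover counting error only and treat regions as independent, which regions of one RNA are not, so no test over regions was made. The clusters were also chosen from these same peaks, so the shares are descriptions.

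The gain over isolated regions was mostly in regions seen by all libraries. Regions of replicate 1 alone were 27.9% of the cluster regions and 42.4% of the isolated ones, and those of replicate 2 alone were 9.76% and 14.3%. The share for replicate 3 alone was 5.26% in clusters and 5.15% in isolated regions. Regions in clusters were also wider, with a mean of 36.6 nt against 23.2 nt, and 66.7% of them were a single 20-nt bin against 89.4%. Among single-bin regions the core share was 16.4% in clusters and 10.5% in isolated ones, a difference of 5.84 percentage points where all regions gave 19.3. Merging peaks of several libraries itself widens a region, so the restriction to 1 bin also removes core regions whose peaks differ in extent. The coordinates of the 3 peaks were identical in 272 of the 677 core cluster regions (40.2%) and in 208 of the 305 core isolated regions (68.2%).

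In each library a larger share of cluster peaks than of isolated peaks had a partner in another library. In replicate 1, 1123 of 1675 cluster peaks (67.0%) and 753 of 1618 isolated peaks (46.5%) lay in a region shared with another library. Replicate 2 gave 85.6% of 1340 and 71.0% of 1008 peaks, and replicate 3 gave 89.7% of 1006 and 79.5% of 513. The difference was 20.5, 14.6 and 10.1 percentage points, in the order of list length. The same peaks chose the clusters, so these shares are descriptions and carry no test. The share over all nuclear peaks of each list is not given here. Clusters took 29.9%, 32.9% and 37.8% of the nuclear peaks of replicates 1, 2 and 3 (33.5% ± 4.0, SD, n = 3).

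Each library was also left out of the choice of clusters and then used to read them. With clusters rebuilt by the same rule from the other 2 lists, a peak of the held-out replicate 1 overlapped 956 of 1177 cluster regions (81.2%, 95% Wilson interval 78.9 to 83.4) and 991 of 1577 isolated regions (62.8%, 60.4 to 65.2). For replicate 2 the shares were 60.3% of 1604 (57.9 to 62.7) and 40.2% of 1942 (38.1 to 42.4). For replicate 3 they were 42.7% of 1807 (40.5 to 45.02) and 20.8% of 2014 (19.04 to 22.6). Chains of 2 to 4 regions lay between them in each library, at 72.1%, 51.0% and 31.2%. Recovery in clusters exceeded that of isolated regions by 18.4, 20.1 and 21.97 percentage points, a mean of 20.2 ± 1.8 (SD, n = 3, higher in 3 of 3 libraries, two-sided exact sign-flip permutation p = 0.25, the smallest that 3 libraries allow). These 3 values are not independent, because each list also helped to build the clusters that the other 2 libraries read.

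Part of that difference went with the score and width of the regions. Within quintiles of the score percentile in the other 2 lists it was 9.42, 10.3 and 12.01 percentage points (mean 10.6 ± 1.3, SD, n = 3, p = 0.25, same exact test). Restricted to regions 1 bin wide it was 13.3, 10.5 and 10.1 points (mean 11.3 ± 1.7). Regions already seen by both other libraries were recovered in 95.8%, 89.96% and 66.9% of cases in clusters and in 91.1%, 80.5% and 44.8% when isolated. Regions of a single other library were recovered in 66.4%, 38.7% and 13.5% of cases in clusters and in 52.1%, 28.7% and 7.73% when isolated. Recovery was thus higher in clusters in all 3 libraries under each of these 4 restrictions.

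Held-out peaks fell on the regions of a cluster and seldom between them. Of the 20-nt bins inside the regions of rebuilt clusters, peaks of the held-out replicates 1, 2 and 3 covered 83.3%, 61.9% and 42.8%. In the gaps between those regions they covered 15.3% of 2724 bins, 4.32% of 3774 and 1.98% of 4402, which is 5.44, 14.3 and 21.7 times less. In the 200 nt on either side of a cluster they covered 5.54%, 1.21% and 0.602% of bins. Gap bins were therefore covered more often than flanking bins and much less often than region bins in each library. The flanks of isolated regions were covered in 2.24%, 0.628% and 0.221% of bins. Bins inside isolated regions were covered in 64.0%, 40.6% and 20.7% of cases, or 28.6, 64.6 and 93.9 times the share of their flanks. A contrast between regions and their surroundings is therefore not particular to clusters. The first 815 lines of the 3 lists have identical coordinates and no other lines are common to all, so the lists were ordered jointly before deposit, and whether they were also called jointly was not tested.

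**Figure D2:**
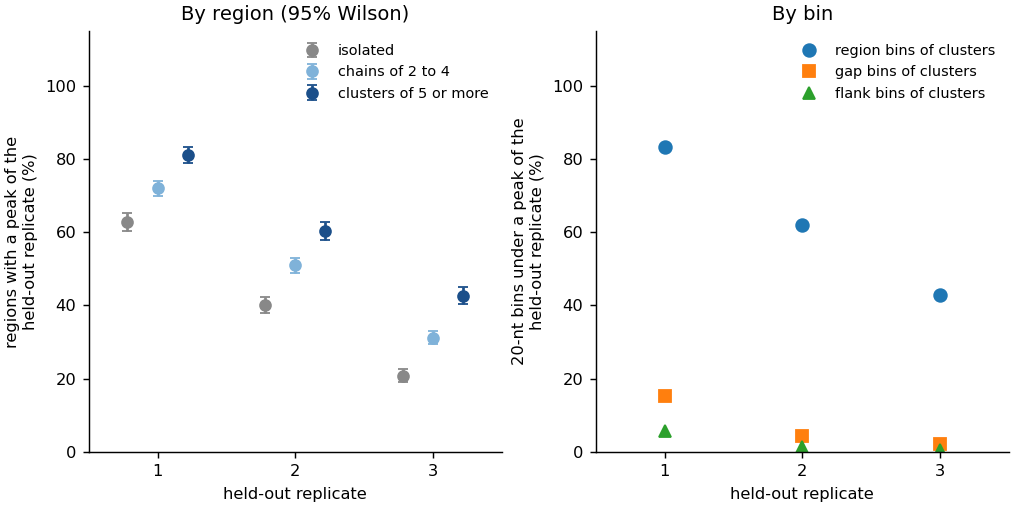
Left, percentage of regions built from the other 2 lists that a peak of the held-out replicate overlaps (y axis), for isolated regions, chains of 2 to 4 and clusters, with 95% Wilson intervals; right, percentage of 20-nt bins covered by the held-out replicate in regions, gaps and 200-nt flanks of clusters. Clusters stand at 81.2%, 60.3% and 42.7%, above isolated regions at 62.8%, 40.2% and 20.8%, and gap bins reach at most 15.3%.

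Single lists found fewer clusters. Taken alone, the lists of replicates 1, 2 and 3 gave 181, 116 and 73 chains that met the rule. Of the 73 from replicate 3, 64 (87.7%) overlapped a chain of at least 5 peaks in replicate 1 and 62 (84.9%) one in replicate 2. In the other direction, 56 (30.9%) and 87 (48.1%) of the 181 from replicate 1 overlapped one in replicates 3 and 2. Every chain of replicate 3 alone held at least 1 peak of each other library. Of the 262 clusters, 49 overlapped such a chain in each list alone, and 65 reached 5 regions only when the lists were combined. All 262 held peaks of replicates 1 and 2, and 11 held none of replicate 3.

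Peaks in clusters ranked higher within their own list than isolated peaks. The score is the authors' whole number per peak, whose meaning is not given in the sources used here, so it was ranked within each nuclear list and never compared between lists. The median percentile of cluster peaks was 58.8, 57.8 and 55.7 in replicates 1, 2 and 3, against 39.3, 40.6 and 41.5 for isolated peaks. Peaks in chains of 2 to 4 had medians of 47.7, 48.4 and 41.5. The excess of clusters over isolated peaks was 19.5, 17.2 and 14.2 percentiles (mean 17.0 ± 2.6, SD, n = 3, higher in 3 of 3 libraries, two-sided exact sign-flip permutation p = 0.25, the smallest possible). In raw scores the medians were 49, 38 and 28 in clusters and 41, 33 and 25 for isolated peaks.

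**Figure D3:**
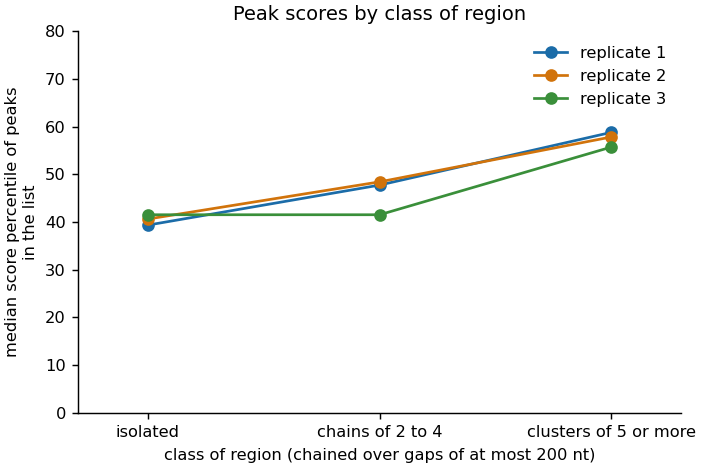
Median within-list percentile of the peak score (y axis) for isolated regions, chains of 2 to 4 and clusters of 5 or more, 1 line per replicate. Cluster peaks have the highest median in each library, between 55.7 and 58.8, and the chains of 2 to 4 equal the isolated regions in replicate 3.

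The excess was smaller among regions of equal width. For single-bin regions the medians were 45.2, 42.7 and 41.5 in clusters and 36.1, 36.3 and 35.7 when isolated, an excess of 7.10 ± 1.75 percentiles (SD, n = 3). At the upper end, 14.6%, 13.3% and 12.2% of cluster peaks lay in the top decile of their list, against 7.29%, 8.73% and 9.55% of isolated peaks. In the lowest decile the order was the opposite, with 8.12%, 5.67% and 7.06% of cluster peaks and 15.2%, 10.02% and 12.5% of isolated ones. Within a cluster, the highest score was a median of 1.77, 1.61 and 1.55 times the cluster's median score in the clusters with at least 3 peaks of the library (260, 228 and 169 clusters). The highest such ratio was 6.51, 5.43 and 6.25.

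Read from 5′ to 3′, clusters had their highest core share inside and not at the ends. The first region of a cluster was core in 63 of 262 cases (24.0%, 95% Wilson interval 19.3 to 29.6), the last in 77 (29.4%, 24.2 to 35.2) and the inner ones in 537 of 1453 (37.0%, 34.5 to 39.5). The share over all nuclear regions, 24.6%, lay within the intervals of the first and the last regions. Inner regions exceeded both ends together by 10.2 percentage points. Without replicate 1, where clusters were rebuilt and core means both remaining libraries, the excess was 1.82 points. Among single-bin regions the core share was 17.8% inside and 12.9% at the ends. The ends are by construction the regions with an empty 200 nt on one side.

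Inner regions also had higher scores than the ends in each library. The median percentile of inner regions was 60.8, 57.8 and 55.7 in replicates 1, 2 and 3, against 52.6, 54.8 and 51.4 at the ends. The difference was 8.15, 3.04 and 4.31 percentiles (mean 5.16 ± 2.66, SD, n = 3, p = 0.25, two-sided exact sign-flip permutation), and 2.83 without replicate 1. Last and first regions showed no common order, with differences of -2.51, 1.52 and -4.64 (p = 0.50, same exact permutation test). With the cluster cut into 5 parts of equal length, the core share from the 5′ end was 27.5%, 33.0%, 38.9%, 43.3% and 32.8%. The median percentile peaked in the fourth part in replicates 1 (64.4) and 2 (61.2) and in the second in replicate 3 (62.7), so the libraries do not share a direction along the cluster.

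**Figure D4:**
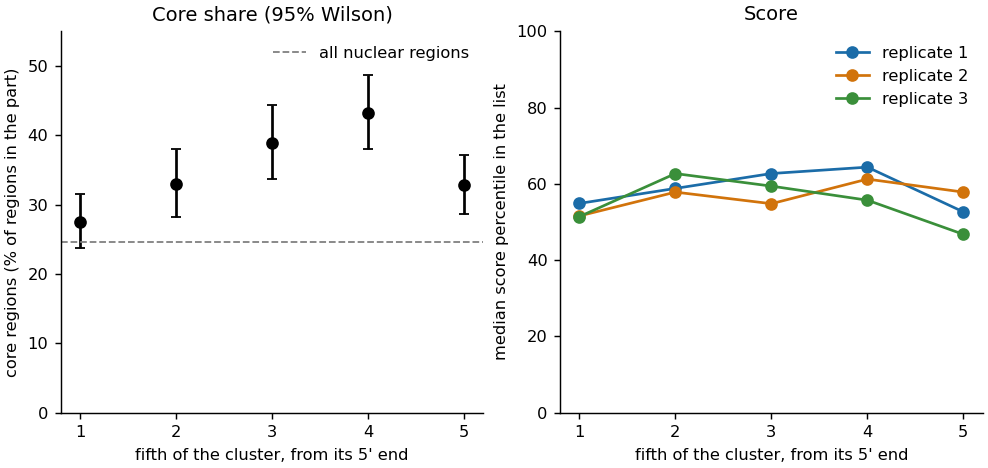
Left, core regions as a percentage of the regions in each of 5 equal parts of the clusters from the 5′ end, with 95% Wilson intervals and the level of all nuclear regions (24.6%) as a dashed line; right, median score percentile of the regions in the same parts, 1 line per replicate. The core share is lowest in the first part (27.5%) and highest in the fourth (43.3%), while the order of the score differs between replicates.

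The place of the highest-scoring region was shared by all libraries in part of the clusters. In 102 of the 251 clusters with peaks of all libraries (40.6%, 95% Wilson interval 34.7 to 46.8) the same region had the highest score in each. Ties counted as shared, and the share to be found by chance was not computed. Only 169 clusters had at least 3 peaks of replicate 3, so elsewhere its highest region had few candidates. For pairs of libraries the share was 58.4% for replicates 1 and 2, 53.4% for 1 and 3 and 57.4% for 2 and 3. The top region was a first or last region in 25.2%, 25.6% and 25.5% of clusters, with ties given to the region nearer the 5′ end. The ends made up a mean of 30.3% of the regions of a cluster. That share counts all regions, whereas a top region must hold a peak of the library, so the shares are not directly comparable. In the 38 clusters with at least 5 core regions, the scores of core regions were correlated between libraries, with a median Spearman rho of 0.78 for replicates 1 and 2, 0.62 for 1 and 3 and 0.56 for 2 and 3. Single clusters ranged from -0.46 to 1. These are descriptions over the few regions of each cluster, whose libraries share the RNA and the width of the regions.

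The 2 clusters with most core regions spanned 1560 and 1580 nt, above the upper quartile of 755 nt. Ranking by a count of core regions favours clusters with many regions. On the minus strand of chromosome 18 (37713061 to 37714620), 10 of 18 regions were core, with 14, 15 and 16 peaks in replicates 1, 2 and 3. Its widest region, 300 nt long and 100 nt from the 5′ end, scored 120, 90 and 42. The highest scores of replicates 1 and 2 (168 and 108) fell in a single-bin region 520 nt from the 5′ end, which scored 41 in replicate 3. Replicate 3 had its highest score, 56, in the region 1080 nt from that end. Replicates 1 and 2 thus shared the highest region, and replicate 3 had another.

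On the minus strand of chromosome 6 (46626421 to 46628000), 10 of 20 regions were core, with 18, 16 and 12 peaks. Core regions lay near both ends: the first, 140 nt wide, scored 123, 74 and 36, and the last, 100 nt wide, scored 72, 42 and 55. Between 1020 and 1200 nt from the 5′ end none of the 5 regions was core. Each library had its highest score in a different region, at 480 nt in replicate 1 (171), at 220 nt in replicate 2 (76) and at 1480 nt in replicate 3 (55). With peaks kept only from 1.5 times the lowest score upward, 3 core regions lay within these coordinates.

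**Figure D5:**
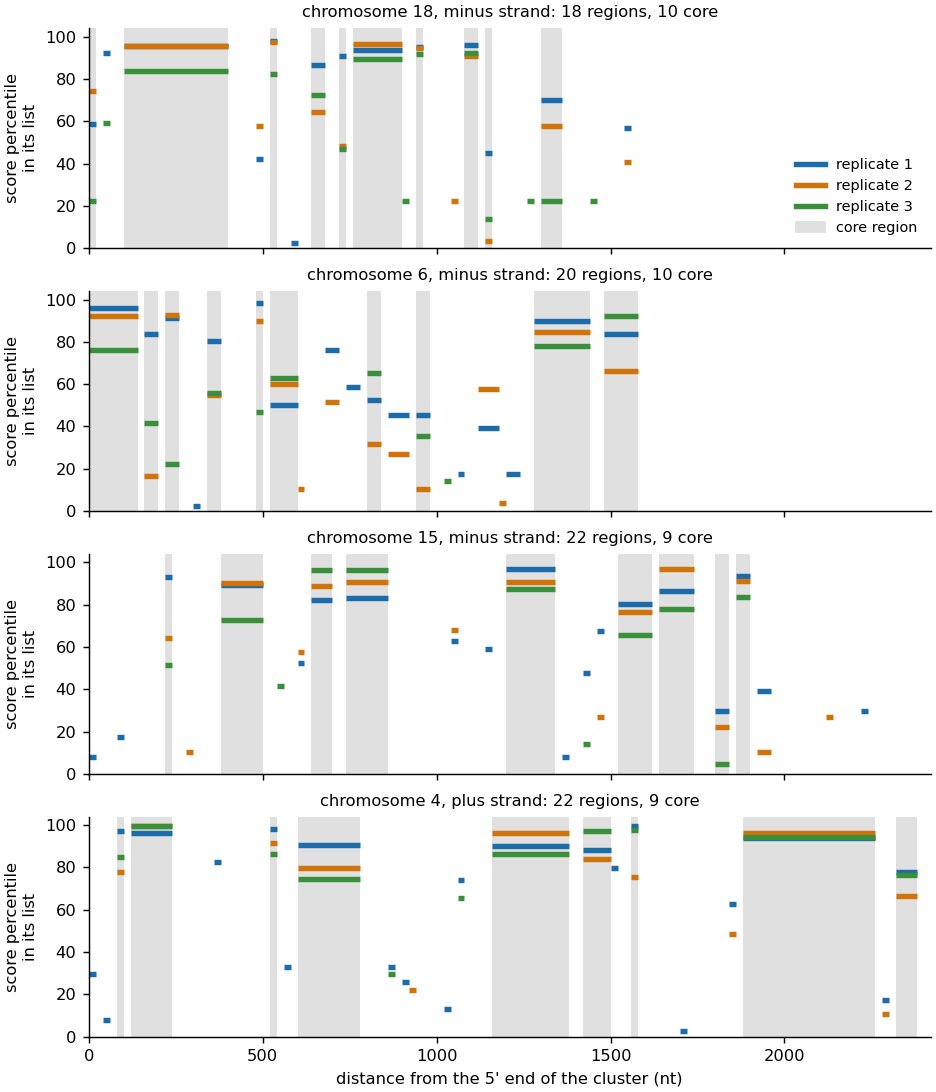
The 4 clusters with most core regions, drawn from their 5′ end (x axis, nt); each bar spans a merged region and its height is the highest within-list score percentile of that replicate in the region, with core regions shaded grey. Many shaded regions are wider than a single bin, and their height varies, with some low in at least 1 replicate. Regions of 1 library are mostly a single bin wide.

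The next clusters reached the upper end of the span. On the minus strand of chromosome 15 (43475741 to 43477980), 9 of 22 regions were core, and the region 1200 nt from the 5′ end scored 130, 70 and 46. Chromosome 4, plus strand, had another (70331781 to 70334160), where 9 of 22 regions were core, with 21, 18 and 21 peaks. There the fourth region scored 127, 226 and 225 and was the highest of the cluster in replicates 2 and 3. Replicate 1 had its highest score, 264, in a single-bin region 1560 nt from the 5′ end that scored 48 and 88 in the others. A 380-nt core region near the 3′ end of this cluster, a width that no other cluster region exceeded, scored 106, 99 and 63.

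Other clusters had fewer regions, of which more were core. On the minus strand of chromosome 8 (69448481 to 69449900), 8 of 11 regions were core (72.7%) and regions covered 69.0% of the span. The 240-nt region 640 nt from its 5′ end scored 193, 117 and 71, and the region 300 nt from that end scored 226, 101 and 67. Chromosome 12 had a plus-strand cluster (13718641 to 13719360) in which 7 of 11 regions were core within 720 nt. Its 2 highest regions lay next to each other, at 380 nt with scores of 178, 124 and 91 and at 460 nt with 195, 134 and 85. The remaining 4 of the 10 clusters with most core regions were on chromosome 2 minus (96593421 to 96594840, 8 of 17 core), chromosome 6 plus (124224421 to 124226180, 8 of 21), chromosome 15 plus (4851521 to 4853520, 8 of 21) and chromosome 6 minus (4252001 to 4253180, 7 of 15).

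Ranked by the mean percentile of their best core region over the 3 libraries, the first 5 clusters had 5 to 11 regions. On the plus strand of chromosome 3 (154045481 to 154046240), the tenth of 11 regions scored 436, 209 and 163, the highest of the cluster in each library, where the median peak of the cluster scored 67, 38.5 and 35.5. Elsewhere on this strand (172434581 to 172434960), 5 of 6 regions were core (83.3%), a share that no other cluster exceeded and that a cluster on chromosome 1 minus (187770701 to 187771160) equalled. A pair of its single-bin regions, 40 and 200 nt from the 5′ end, scored 300, 116 and 107 and 313, 148 and 92. In a plus-strand cluster of chromosome 4 (27192901 to 27193380), the last of 7 regions was the highest in each library, with 218, 129 and 112. On its minus strand (64239161 to 64239800), the last of 5 regions scored 203, 164 and 94. It was the highest in replicate 1, tied with the fourth region in replicate 3, and came below that region (181) in replicate 2. The minus strand of chromosome 18 had such a region too (cluster 37714881 to 37715400), scoring 203, 155 and 101, the highest of its 6 regions in each library.

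The densest clusters had a lower core share than the least dense ones. In the 66 densest clusters (425 regions), 27.1% of regions were core (95% Wilson interval 23.1 to 31.5), against 39.3% (35.2 to 43.6) in the 66 least dense (514 regions). The share over all nuclear regions, 24.6%, lay within the interval of the densest. The densest clusters also had narrower regions (mean 27.9 against 45.4 nt) and shorter spans (median 320 against 760 nt). Peaks of different libraries that miss each other count as separate regions and raise the density, whereas shared ones merge. The densest cluster, on the minus strand of chromosome 6 (11067661 to 11067800), had 5 single-bin regions in 140 nt and none was shared by any 2 libraries. Its scores were 35, 33 and 34 in replicate 1, 28 in replicate 2 and 21 in replicate 3, all in the lower part of their lists. Of the next 4 by density, those on chromosome 2 minus (250713781 to 250714000) and chromosome 12 minus (35969801 to 35969960) had 1 core region each, and those on chromosome 2 minus (223262441 to 223262620) and chromosome 7 minus (66017121 to 66017300) had none.

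Of all clusters, 235 had at least 1 core region, 38 had at least 5, and in 39 core regions outnumbered the others. The 27 clusters without a core region included a 780-nt one on the plus strand of chromosome 10 (62632761 to 62633540), the one with most regions, where 2 of 9 regions were replicated and all were 1 bin wide. Chains just outside the span limit resembled those just inside it in density. The last clusters inside spanned 2000, 2240 and 2380 nt with 1.05, 0.98 and 0.92 regions per 100 nt and 38.1%, 40.9% and 40.9% core regions. The first chains outside spanned 2560 nt (chromosome 20 plus, 42969121 to 42971680) and 2980 nt (chromosome 2 minus, 29675461 to 29678440) with 1.17 and 1.07 regions per 100 nt and 43.3% and 53.1% core regions. The longer chains left out, of 3540, 3680 and 7120 nt, had 73.2%, 64.1% and 45.2% core regions.

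Clusters lay on 21 chromosomes, 129 on the plus and 133 on the minus strand, and no cluster had a region on the opposite strand within its span. Chromosome 4 had 27 clusters, and chromosomes 2 and 6 had 23 each. The share of a chromosome's regions that lay in clusters was highest on chromosome 6 (204 of 434, 47.0%) and chromosome 4 (214 of 520, 41.2%) and lowest on chromosome 19 (10 of 101, 9.90%). Some clusters had neighbours along their strand. Another cluster lay within 1000 nt of 79 clusters, within 10000 nt of 110 (42.0%) and within 50000 nt of 114, so nearly all of these neighbours were nearer than 10000 nt. Joined over 10000 nt, the 262 clusters formed 197 stretches, of which 152 held 1 cluster, 31 held 2 and 14 held 3 or more.

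The stretch with most clusters was on the minus strand of chromosome 4 (169544821 to 169557120), where 7 clusters with 60 regions, 17 of them core, lay within 12300 nt. The chromosome 18 clusters named above belong to one stretch of 3 (37713061 to 37716500) with 33 regions, 15 of them core. The chromosome 6 cluster with 10 core regions belongs to another (46625421 to 46630320) with 41 regions, 18 of them core. Core shares were 36.0% in the 911 regions of clusters with a neighbour within 10000 nt and 32.7% in the 1066 regions of the others. Whether the clusters of a stretch belong to one transcript was not analysed here.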

How the data were processed

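Peak lists of 3 SYNCRIP iCLIP libraries were used. Per the submitters' processing notes, STAR and rn6 were used, with no aligner version. The names of the deposited lists give Piranha with 20-nt bins as the caller. Its threshold, how duplicate reads were handled and whether IgG reads entered the calls is not given in the sources used. Each library has its own list, and whether peaks were called per library or jointly is not stated. The lists give a whole-number score per peak as deposited by the authors, with no header and with unstated scaling. Depth is unknown.

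One entry with its end before its start and 91, 84 and 74 mitochondrial peaks were left out. Where the rule gave span limits of both 3000 and 2500 nt, the lower was used. Within-list percentiles place tied scores at the middle of their tie. Named clusters are the 10 with most core regions, the 5 densest, the 5 with the highest-ranking core region, those near the span limit and the largest without a core region. The members, lists and rules were chosen with earlier results of these data known. Scripts used Python 3.11.15, numpy 2.4.6 and scipy 1.17.1 and were tested on simulated data. The exact sign-flip permutation test over 3 libraries cannot go below p = 0.25. Intervals are 95% Wilson intervals. Alternatives comprised 13 settings listed in the plan and 5 added after the data were seen. Where nothing says otherwise, values are in the order of replicates 1, 2 and 3. Positions are 1-based.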

Additional observations from a re-analysis of the deposited data

How the results depend on the processing

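The differences in held-out recovery, in score percentile and between inner and end regions were above 0 in each of the 17, 13 and 14 settings. For held-out recovery, the settings that leave out a replicate only average the reported differences of the other 2 libraries. Their sign was therefore fixed by the main result. Ignoring the strand gave the same values as the main setting, so it adds no separate check. The number of clusters, 262 as reported, was 402 with at least 4 regions, 85 with at least 8, 116 with peaks up to 20 nt apart merged, 69 with scores of at least 1.5 times the lowest and 121 with lists cut to equal length; the cluster regions, 1977 as reported, then numbered 965 (at least 8), 745, 461 and 883. Fewer peaks or stricter limits enter by construction. Leaving out a replicate gave 158 to 241 clusters, 1177 to 1807 regions and core shares of 42.2% to 54.8% (core then needs 2 libraries). Score differences were then 16.8 to 21.8 percentiles and inner-minus-end differences 2.83 to 6.23 percentiles. The held-out differences were averaged over the other 2 libraries, at 19.3 to 21.1 points. The clusters behind them still used the left-out replicate, so recovery was not analysed anew without it. Without replicate 1 there were 158 clusters, 1177 regions and a core difference between inner and end regions of 1.82 points.

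The core share, 34.2% as reported, was 37.6% with gaps of at most 100 nt, 29.5% with at most 500 nt, 37.3% with at least 8 regions, 38.9% with book-ended peaks merged, 41.9% with peaks up to 20 nt apart merged, 39.05% with the stricter score and 43.3% at equal list length. The held-out difference, 20.2 points, was 14.9 with gaps of at most 500 nt and 22.1 with at least 8 regions. In settings chosen after the data were seen it was 11.3 for regions 1 bin wide, 12.1 for regions of both other libraries, 10.04 for those of 1 other library and 10.6 within score quintiles. The score difference, 17.0 percentiles, was 12.2 with gaps of at most 500 nt and 20.7 with at least 8 regions. The inner-minus-end difference, 5.16 percentiles, was 9.04 with gaps of at most 100 nt and 15.1 with the stricter score; the cause was not tested. No paired analysis was possible because the groups that share numbers are SYNCRIP and IgG, and no IgG list is analysed here. Unknown depth and unequal lists limit what a missing peak shows.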
